A study of Caenorhabditis elegans with 2 samples.

Results

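The genes described here are 8 protease genes of Caenorhabditis elegans: the cathepsin B-like cysteine protease genes cpr-1, cpr-3, cpr-4, cpr-5 and cpr-6, and the cathepsin D-like aspartyl protease genes asp-1, asp-3 and asp-4. They were chosen by name, as genes of lysosomal and digestive proteases linked to the intestine, and all 8 were found among the 19973 protein-coding genes of the annotation. ChIP-seq of the zinc finger protein ZTF-22 was made from 1 group of young adult whole animals, given as 68 hours old and synchronised as starved L1 larvae after bleaching, in 2 biological replicates of mixed sex. The strain, OP676, carried the unc-119(tm4063) mutation and the integrated transgene wgIs676, which encodes ZTF-22 with TY1, EGFP and 3xFLAG tags together with unc-119(+). A single transgenic line was used. The labels say that the immunoprecipitation used anti-GFP, while their antibody field names ztf-22. There was no second condition and no expression measurement, so no cell type marker could be examined, and binding in the intestine cannot be told apart from binding in other tissues of the animal.

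Cathepsin B-like enzymes cut proteins with an active-site cysteine and cathepsin D-like enzymes with a pair of aspartates, both mainly in acidic compartments. In the nematode, the intestine digests bacterial food in its lumen and holds many lysosome-related organelles, and genes of both families are transcribed there. Genes of the intestine are commonly controlled by GATA factors such as ELT-2, which recognise short sequences around the letters GATA. ZTF-22 belongs to the zinc finger proteins, many of which bind DNA through their fingers.

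The authors' optimal list holds the peaks kept after comparing the replicates. They were also the regions with the highest signal on the pooled reads, and a peak need not rank high in each replicate. An optimal peak lay within 2 kb of the transcript start of 5 of the 8 protease genes: cpr-1, cpr-3, cpr-4, cpr-6 and asp-4. Across the genome, 4.79% of protein-coding genes had an optimal peak in that reach. The same 5 genes had their peak in the promoter window, from 500 bp upstream to 200 bp downstream of the start, where 1.91% of all genes had one. With replicate 2 left out, the strongest regions of replicate 1 stood in for the optimal list. The count was then 2 of 8 within 2 kb (4.73% of all genes) and 2 of 8 in the promoter window (1.67%). With replicate 1 left out in the same way, it was 4 of 8 by either window (4.8% and 1.99%). The genes without an optimal peak were cpr-5, asp-1 and asp-3. The genes were chosen with earlier results of these data known, so the counts are descriptions and no test was made of them.

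The 200 bases upstream of each of the 8 starts are shown because the peaks lay there, or within a few bases of it. The genes with and without a peak can also be compared relative to the annotated start. At asp-1 no 5' UTR is annotated, so that start is the start of the coding sequence. The sequences are from the RefSeq copy of the WBcel235 genome (ce11), on the strand of the gene, 5' to 3', and end at the base before the annotated transcript start. Capitals mark TGATAA and AGATAA, which are forms of the GATA motif, searched on both strands. The first 5 belong to genes with an optimal peak, in the order of its rank, and the last 3 to genes without one.
cpr-3 (chrV:15298701-15298900, - strand): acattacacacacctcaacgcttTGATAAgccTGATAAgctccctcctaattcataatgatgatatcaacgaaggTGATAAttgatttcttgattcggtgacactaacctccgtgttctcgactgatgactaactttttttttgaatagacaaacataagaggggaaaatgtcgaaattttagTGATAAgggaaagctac
cpr-4 (chrV:6614474-6614673, + strand): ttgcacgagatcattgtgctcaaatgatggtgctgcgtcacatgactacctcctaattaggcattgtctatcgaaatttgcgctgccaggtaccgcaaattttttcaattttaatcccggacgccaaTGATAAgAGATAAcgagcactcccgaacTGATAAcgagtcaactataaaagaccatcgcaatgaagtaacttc
cpr-6 (chrX:6607007-6607206, + strand): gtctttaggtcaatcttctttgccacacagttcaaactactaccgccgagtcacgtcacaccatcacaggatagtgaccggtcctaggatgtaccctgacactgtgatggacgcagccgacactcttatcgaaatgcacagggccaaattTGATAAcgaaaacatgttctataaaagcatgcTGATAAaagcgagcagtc
cpr-1 (chrV:11975351-11975550, + strand): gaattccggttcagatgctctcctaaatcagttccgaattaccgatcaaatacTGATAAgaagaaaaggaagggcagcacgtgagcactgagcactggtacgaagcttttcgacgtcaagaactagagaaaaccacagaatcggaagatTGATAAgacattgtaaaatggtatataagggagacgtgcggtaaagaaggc
asp-4 (chrX:13221463-13221662, - strand): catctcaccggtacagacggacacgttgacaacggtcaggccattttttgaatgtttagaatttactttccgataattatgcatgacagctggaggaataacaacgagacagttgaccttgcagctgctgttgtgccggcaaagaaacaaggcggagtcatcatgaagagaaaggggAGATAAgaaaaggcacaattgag
cpr-5 (chrV:1134037-1134236, - strand): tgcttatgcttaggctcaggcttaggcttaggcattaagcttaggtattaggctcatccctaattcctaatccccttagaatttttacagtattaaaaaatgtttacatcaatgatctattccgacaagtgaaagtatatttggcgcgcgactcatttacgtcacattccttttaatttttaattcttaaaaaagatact
asp-1 (chrV:19050753-19050952, - strand): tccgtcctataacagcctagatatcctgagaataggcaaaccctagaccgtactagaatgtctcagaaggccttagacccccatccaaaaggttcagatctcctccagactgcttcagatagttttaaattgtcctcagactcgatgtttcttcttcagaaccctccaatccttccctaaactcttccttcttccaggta
asp-3 (chrX:6790864-6791063, + strand): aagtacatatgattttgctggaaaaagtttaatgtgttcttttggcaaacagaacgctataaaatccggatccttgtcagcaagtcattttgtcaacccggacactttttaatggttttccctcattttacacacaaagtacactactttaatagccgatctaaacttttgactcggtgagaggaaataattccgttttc

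In these 200 bp, TGATAA or AGATAA was present upstream of each of the 5 genes with an optimal peak and of none of the 3 genes without one. Other letters around GATA, such as AGATAG in the asp-1 sequence, were not searched. In 500 bp upstream asp-3 also had a match, as did 60.7% of all genes. At their strongest summits, away from the start, asp-1 and asp-3 both held TGATAA. The matches numbered 4 at cpr-3, 3 at cpr-4, 2 at cpr-6, 2 at cpr-1 and 1 at asp-4. The 4 cathepsin B-like genes with a peak each held TGATAA, and asp-4 held AGATAA alone. Over all 19973 protein-coding genes, 34.7% had either form in the same 200 bp, 22.6% had TGATAA and 15.8% had AGATAA. Among the 382 genes with an optimal peak in the promoter window, 39.3% had either form. A match is a description of the letters and does not show that a GATA factor or ZTF-22 binds them. At GC contents of 37.0% to 46.5%, the upstream sequences of the 5 genes with a peak were richer in G and C than the median gene (33.0%). Those of cpr-5, asp-1 and asp-3 had 34%, 45% and 36%.

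**Figure D1:**
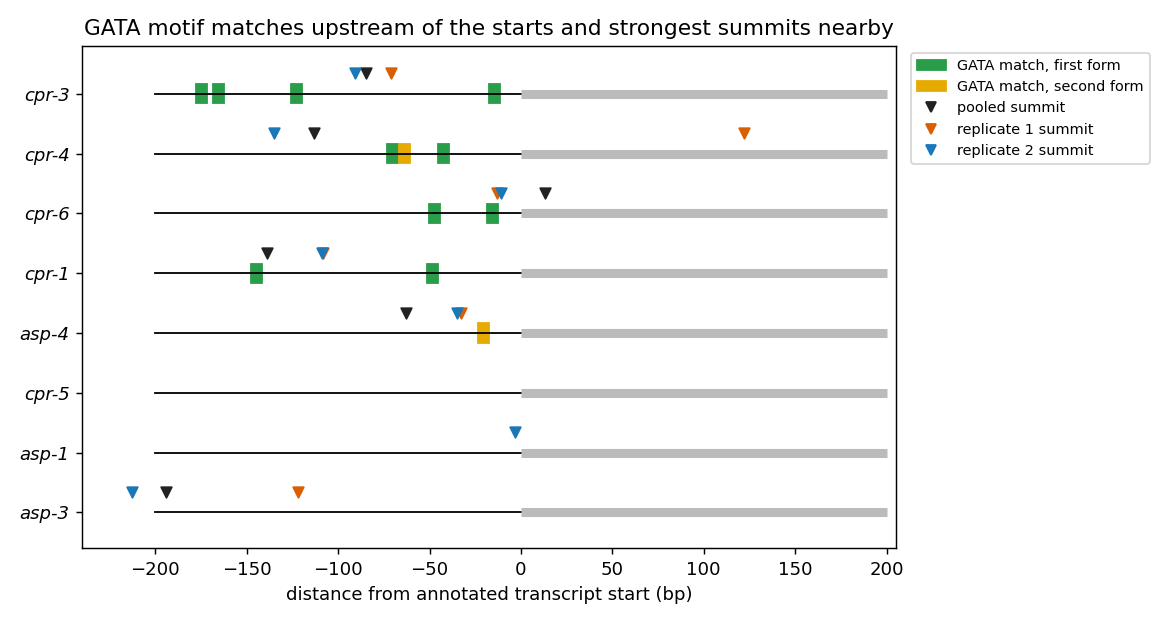
Positions of TGATAA and AGATAA, the 2 GATA forms searched (boxes), in the 200 bp upstream of each annotated transcript start. Triangles are at the strongest summit of the pooled, replicate 1 and replicate 2 lists in the promoter window. The horizontal axis is distance from the start in bp, and the grey bar is the first 200 bp downstream; the 5 upper genes have an optimal peak and at least 1 match, and the 3 lower genes have neither.

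Candidate regions are the lists of 30000 regions each that the authors called on replicate 1, on replicate 2 and on the pooled reads, weak background regions included. Each region carries a signal value in the units of the authors' peak caller, and rank 1 is the region with the highest value in its list. Positions are relative to the transcript start, negative upstream. The optimal peaks were the pooled regions with the highest signal, so pooled and optimal ranks are the same for these genes.

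The strongest site of the group was at cpr-3 (WBGene00000783, chromosome V, 15296834 to 15298700, - strand), a cathepsin B-like gene. Its pooled summit was at position 15298785, 85 bp upstream of the start in intergenic sequence, with a signal of 201 and rank 115. In the replicates the summit lay 71 bp upstream with rank 537 in replicate 1 and 91 bp upstream with rank 81 in replicate 2. Below, the strongest regions of a replicate are its top ranks, as many as the optimal list has peaks. The cpr-3 site was among the strongest regions of both replicates, within 14 bp and 6 bp of the pooled summit. It was the single protease gene of the 8 for which this held at matched summits (within 100 bp), against 0.931% of all genes. The summit lay between TGATAA matches that begin 125 bp and 17 bp upstream. The nearest match had its centre 37 bp from the pooled summit, 51 bp from that of replicate 1 and 31 bp from that of replicate 2. One other pooled candidate, of rank 7613, lay 1269 bp downstream in a coding exon.

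At cpr-4 (WBGene00000784, chromosome V, 6614674 to 6615851, + strand), whose cathepsin B-like product is known as a secreted protease, the replicates placed their strongest region on opposite sides of the start. The pooled summit was at 6614561, 113 bp upstream, with a signal of 169 and rank 245. Replicate 2 had its summit 135 bp upstream with rank 172 and a second, weak summit 68 bp downstream with rank 8472. Replicate 1 had no summit upstream: its region of rank 421 had its summit 122 bp downstream, in a coding exon, 235 bp from the pooled summit. Both replicates thus ranked a region at the start of cpr-4 among their strongest, but not at the same summit. The nearest GATA match had its centre 42 bp from the pooled summit, 164 bp from that of replicate 1 and 64 bp from that of replicate 2. A weak pooled summit lay 105 bp downstream with rank 8978. A further candidate 1800 bp downstream, beyond the 3' end, had rank 3251 in the pooled list, and one 1747 bp downstream had rank 1906 in replicate 1.

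At cpr-6 (WBGene00000786, chromosome X, 6607207 to 6609045, + strand), another cathepsin B-like gene, the summits sat on the start itself. The pooled summit was at 6607220, 13 bp downstream in the 5' UTR, with a signal of 162 and rank 290. The replicate summits were 13 bp and 11 bp upstream, with rank 3727 in replicate 1 and rank 161 in replicate 2. The 2 replicates thus placed the summit within 26 bp of the pooled one and differed in strength. A TGATAA match begins 18 bp upstream. Its centre was 28 bp from the pooled summit, 2 bp from that of replicate 1 and 4 bp from that of replicate 2. A weaker candidate recurred inside the gene, 889 bp downstream in the pooled list (rank 2968) and in replicate 2 (rank 5103), and 921 bp downstream in replicate 1 (rank 6062).

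At cpr-1 (WBGene00000781, chromosome V, 11975551 to 11976756, + strand), a cathepsin B-like gene known for expression in the gut, the pooled summit was at 11975412, 139 bp upstream, with a signal of 148 and rank 384. The replicates had it 108 bp upstream with rank 1807 in replicate 1 and 109 bp upstream with rank 303 in replicate 2. These 3 summits lay inside C52E4.17, a non-coding RNA gene annotated on the opposite strand, whose start was 68 bp from the pooled summit. A peak of cpr-1 cannot be told apart from one of C52E4.17. The TGATAA match that begins 147 bp upstream has its centre 5 bp from the pooled summit. That centre was 36 bp from the replicate 1 summit and 35 bp from that of replicate 2. The upstream sequence also holds CACGTG, the E-box letters, 123 to 118 bp upstream, which 4.22% of all genes have in the same window and none of the other 7 protease genes had.

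The aspartyl protease gene asp-4 (WBGene00000217, chromosome X, 13218985 to 13221462, - strand), known together with asp-3 for a part in necrotic cell death, had the weakest of the optimal peaks. Its pooled summit was at 13221525, 63 bp upstream, with a signal of 116 and rank 821, where the lowest signal in the optimal list was 110. The replicates had it 33 bp upstream with rank 5164 in replicate 1 and 35 bp upstream with rank 981 in replicate 2. It was therefore outside the strongest regions of either replicate, though all 3 lists placed the summit within 30 bp of the pooled one. The AGATAA match had its centre 42 bp from the pooled summit, 12 bp from that of replicate 1 and 14 bp from that of replicate 2.

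**Figure D2:**
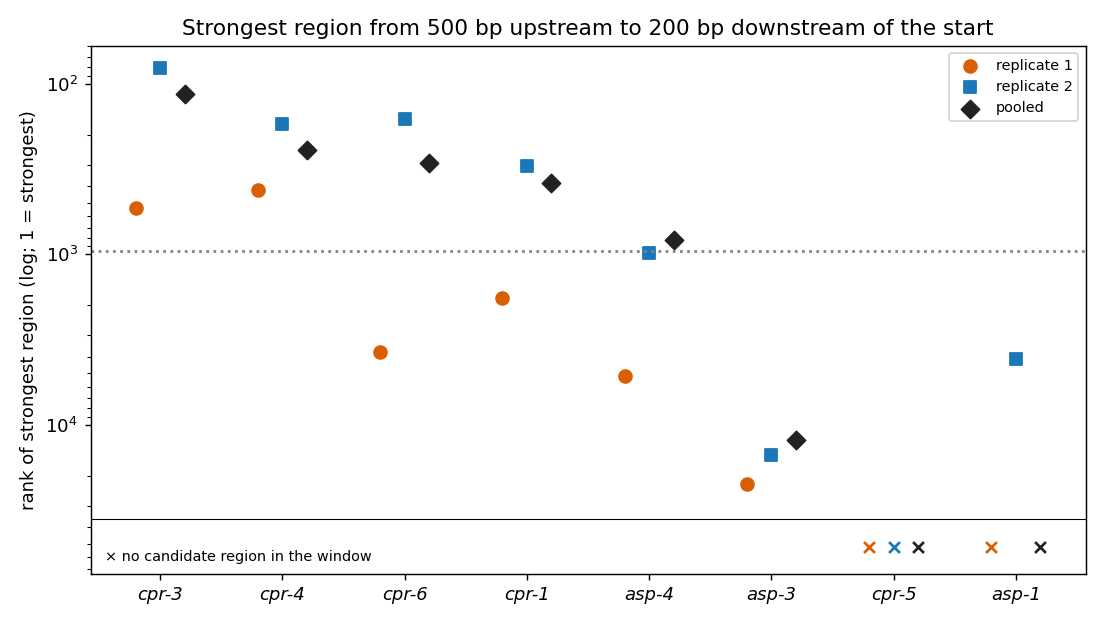
Rank of the strongest candidate region from 500 bp upstream to 200 bp downstream of each gene's start, in replicate 1 (circles), replicate 2 (squares) and the pooled list (diamonds), on an inverted log axis with the strongest at the top. The dotted line is the rank that equals the size of the optimal list, and crosses mark lists with no region in the window; in each of the 5 genes with an optimal peak the replicate 2 region stands above that of replicate 1.

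Of the genes without an optimal peak, asp-1 came closest by rank, but at its 3' end. This aspartyl protease gene (WBGene00000214, chromosome V, 19049562 to 19050752, - strand), known for intestinal expression, had a pooled candidate of signal 104 and rank 1125 at position 19049373, which is 189 bp beyond the annotated end. The same place had rank 1077 in replicate 1 and rank 1313 in replicate 2, so this was a region that both replicates ranked alike. No 5' UTR is annotated for asp-1, so its start is that of the coding sequence. There, replicate 2 had a summit 3 bp upstream with rank 4116, and the pooled and replicate 1 lists had none in the promoter window.

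At asp-3 (WBGene00000216, chromosome X, 6791064 to 6792709, + strand), an aspartyl protease gene, the promoter window held weak regions in every list: 194 bp upstream with rank 12289 in the pooled list, 122 bp upstream with rank 22422 in replicate 1 and 213 bp upstream with rank 15159 in replicate 2. Its strongest pooled region, of rank 2327, lay 62 bp beyond the 3' end. In replicate 2 the strongest region in reach had rank 1060 and lay 1838 bp upstream, nearer to the start of the neighbouring gene sgca-1 than to that of asp-3. The stronger regions near asp-3 thus lay outside its promoter window.

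The cathepsin B-like gene cpr-5 (WBGene00000785, chromosome V, 1132598 to 1134036, - strand) had the weakest values of the 8. It stands head to head with cpr-8, another gene of the family, and the starts of the pair are separated by 565 bp. No summit of any list fell between them, and no candidate region touched that gap. The strongest pooled region was in a coding exon, 261 bp downstream, with rank 14675, and replicate 2 had it at the same base with rank 6235. Replicate 1 had 1 summit in reach, 1673 bp downstream with rank 8748.

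**Figure D3:**
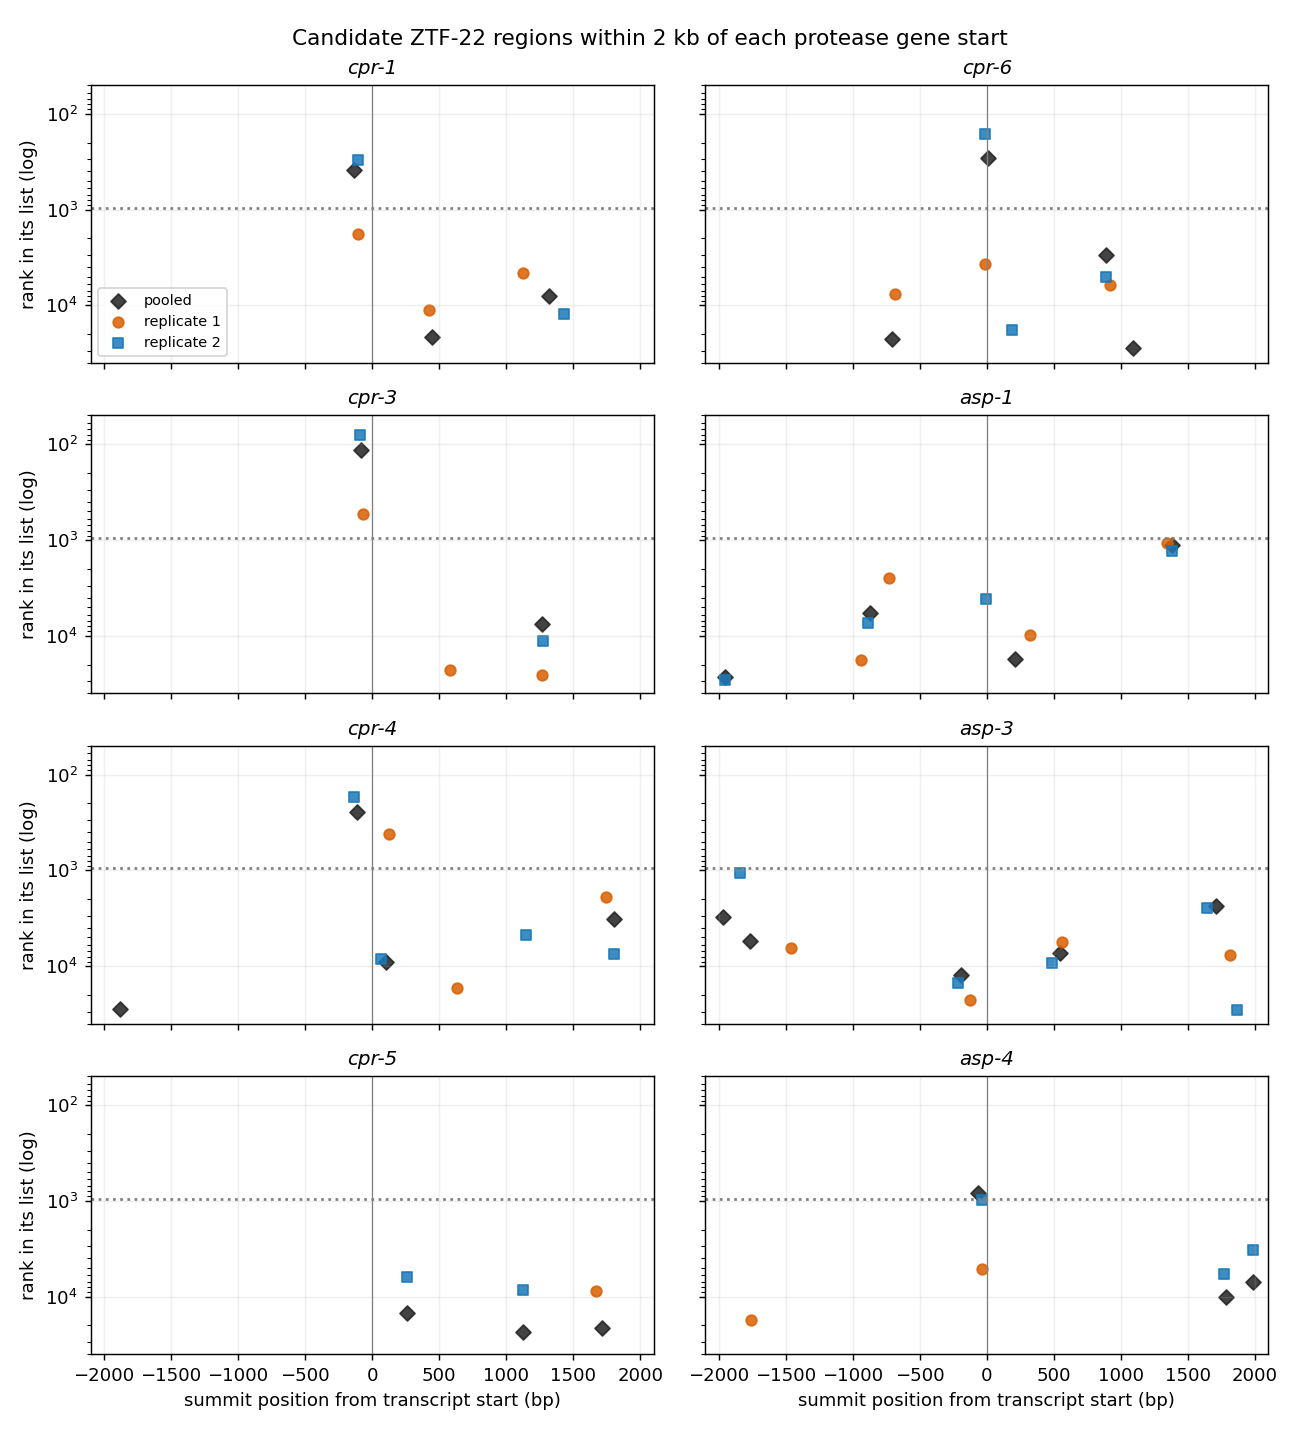
Every candidate summit within 2 kb of the 8 starts, by position from the start in bp (horizontal, direction of transcription to the right) and rank in its list (vertical, inverted log axis), for the pooled list, replicate 1 and replicate 2. The dotted line is the rank that equals the size of the optimal list; in cpr-1, cpr-3, cpr-4, cpr-6 and asp-4 the strongest pooled summit is within 139 bp of the start, and in asp-1 and asp-3 it is beyond the 3' end.

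The 5 optimal peaks lay close to their starts. Their distances ranged from 13 to 139 bp with a median of 85 bp, while the median over the 956 genes with an optimal peak within 2 kb was 740 bp. Of those 956 genes, 15.8% had the peak within 150 bp, as all 5 of the protease genes did. In each of the 5 cases the protease gene was the nearest protein-coding start. The 956 genes, in contrast, include genes whose peak lay nearer to another start. With assignment to the nearest start, the share of all genes with a peak was 3.27% and not 4.79%. The 740 bp and 15.8% thus describe a wider set, and distances over nearest genes alone were not computed. On chromosome V, 3 of the 5 protease genes had an optimal peak within 2 kb, where 3.42% of all genes on that chromosome had one. On the X chromosome it was 2 of 3, where 6.96% of genes had one.

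The strength of the 5 promoter regions differed between the replicates. In each of the 5 genes the strongest region in the promoter window ranked lower in replicate 1 than in replicate 2, with median ranks of 1807 and 172. At cpr-4 the 2 replicates' regions were not at the same summit, lying 122 bp downstream in replicate 1 and 135 bp upstream in replicate 2. Over the 371 genes with an optimal peak in the promoter window and a region there in both replicates, the medians were 584 in replicate 1 and 459 in replicate 2, and 65.2% ranked lower in replicate 1. Among its strongest regions, replicate 1 had one within 2 kb of 2 protease genes, cpr-3 and cpr-4, where 4.73% of all genes had one. Replicate 2 had one at 4, cpr-1, cpr-3, cpr-4 and cpr-6, where 4.8% of all genes had one. These regions were also in the promoter window, where the shares of all genes were 1.67% and 1.99%. The depth of each library is unknown from the files, so its part in this difference was not tested.

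Weak candidate regions carry little information about a gene, since most genes have one in reach. Each of the 8 protease genes had a candidate region within 2 kb in every list, where 71.6%, 73.8% and 71.5% of all genes had one in the pooled, replicate 1 and replicate 2 lists. In the promoter window the counts were 6, 6 and 7 of 8, where 28.3%, 27.6% and 28.8% of all genes had one. There were 28 pooled summits within 2 kb of the 8 starts, 23 of replicate 1 and 25 of replicate 2. The strongest pooled region of a protease gene had a median rank of 602.5 over the 8 genes, with a range of 115 to 14675, and of 9940 over the 14292 protein-coding genes with a region in reach. The median over the 8 genes was 2767 without replicate 2, where that of all genes was 10377, and 642 without replicate 1, where that of all genes was 9904. For 5 of the 8 genes (cpr-1, cpr-3, cpr-6, asp-1 and asp-4), that region had a summit within 100 bp in both replicates. The same held for 6058 of the 14292 genes with a region in reach. Over all genes the share was 30.3%, with genes that had no region in reach counted as unmatched.

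**Figure D4:**
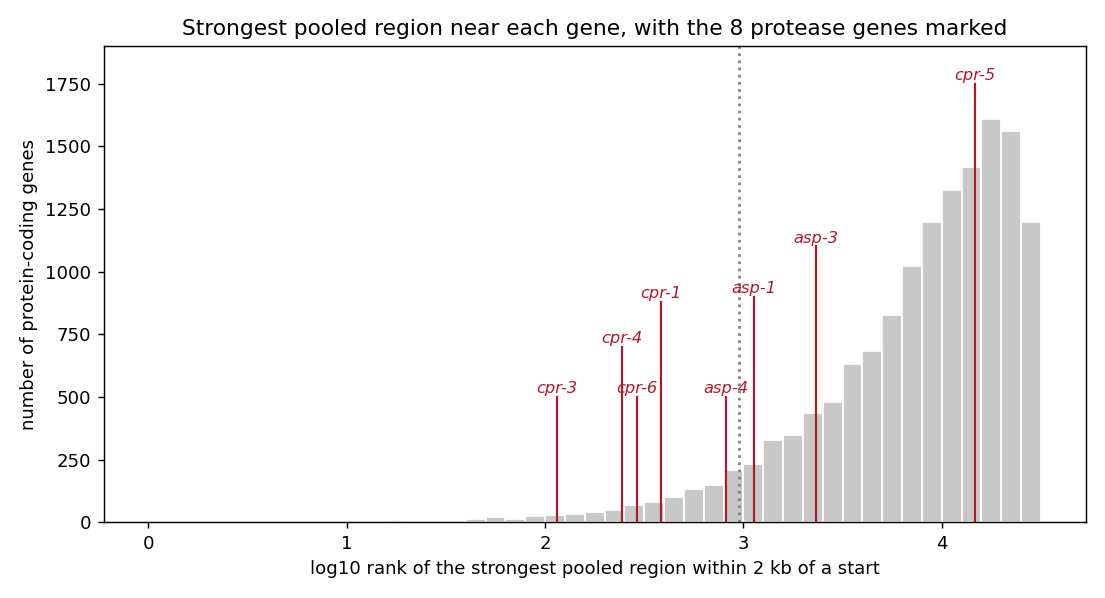
Number of protein-coding genes (bars) by the log10 rank of their strongest pooled region within 2 kb of a transcript start, with lines at the 8 protease genes; the height of a line has no meaning. The dotted line is the rank that equals the size of the optimal list, and 5 of the 8 genes lie to its left, toward stronger regions.

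Other motifs were examined at the strongest pooled summit of each gene, within 100 bp either side. TGATAA or AGATAA was found at 7 of the 8, with cpr-5 the exception, where 41.3% of the optimal peaks and 24.9% of the other pooled candidates had one. GAGAGA was found at none of the 8 summits, where 35.5% of the optimal peaks and 15.8% of the other pooled candidates had it. CTGCGTCTC was also found at none, where the shares were 9.14% and 1.96%. Neither was found in the 200 bp upstream of any of the 8 starts. In that window 16.3% of all genes had GAGAGA and 2.34% had CTGCGTCTC. Within 200 bp either side GAGAGA was found at 2 of the 8 summits, and with replicate 2 left out at 1. CACGTG was found at cpr-1 alone, where 13.4% of the optimal peaks and 5.5% of the other pooled candidates had it. TCACGTGA was found at none, where the shares were 1.58% and 0.392%. Motif matches were counted on both strands, and overlapping matches were counted separately.

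Exact repeats of these sequences elsewhere in the genome were counted. Copies that differ by a base were not searched, and whether reads from elsewhere were placed at these genes was not tested. No word of 31 bases in the 200 bp upstream of the 8 starts occurs elsewhere in the genome. The same was true of the strongest pooled regions except at asp-1, where 1 of 360 words recurs.

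Other genes of the lysosome and of protein digestion were taken from 8 lists by family, 88 of whose 89 names were found. An optimal peak lay within 2 kb of 10 (11.4%) and in the promoter window of 3 (3.41%), which the shares of all genes above put in context. The related cysteine proteases gave 1 of 3 cathepsin L and Z genes and 1 of 3 other cathepsin B-like genes. These were cpz-1, a cathepsin Z gene, at rank 558 with the summit 413 bp upstream, and cpr-9, a cathepsin B-like gene, at rank 55 with the summit 803 bp upstream but nearer to gcy-33. The cathepsin L gene cpl-1 had its strongest region at rank 986, in its promoter window but outside the optimal list. Among 14 other aspartyl protease genes, asp-12 and asp-6 shared 1 peak of rank 768, which was nearest to asp-12 at 497 bp upstream.

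Subunit genes of the vacuolar ATPase, the pump that acidifies lysosomes, had an optimal peak at 2 of 20: vha-13 (rank 598, 584 bp upstream) and vha-8 (rank 885, 1453 bp downstream). Genes of the lysosomal membrane and its regulators had 2 of 10: hlh-30, the homologue of the lysosomal regulator TFEB (rank 573, 938 bp downstream), and lmp-1, which encodes a lysosomal membrane protein (rank 605, 770 bp upstream). Other hydrolases had 2 of 20: lipl-5, a lysosomal lipase gene, with the summit 2 bp upstream at rank 860, and lipl-2 at rank 45, where the summit was nearer to ztf-7. None of 10 lysozyme genes and none of 8 genes of cystatins and other protease inhibitors had an optimal peak within 2 kb. Over all genes the share was 4.79%, so lists this short say little when none is found. Replicate 2 had one of its strongest regions within 2 kb of 2 lysozyme genes, and replicate 1 of none. The strongest regions of replicates 1 and 2 lay within 2 kb of 15 and 13 of the 88 genes (17% and 14.8%), where 4.73% and 4.8% of all genes had one. These counts were not limited to the nearest start, and neighbouring genes could share a region, as asp-6 and asp-12 did. The shares of all genes were counted in the same way.

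The genes most like the strongest protease genes in both replicate ranks and in the position of the pooled summit were found among 11190 genes with a region in every list. Likeness was the distance over log10 rank in each replicate and offset in units of 500 bp. For cpr-3 they were Y39B6A.43 (distance 0.234), R04E5.9 (0.260) and Y75B8A.28 (0.302), and for cpr-4 they were T10C6.15 (0.109), F31F7.1 (0.111) and Y75B8A.28 (0.124).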

How the data were processed

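ChIP-seq region lists of ZTF-22 from 2 biological replicates were used as deposited, on ce11. Per the deposited descriptions, each candidate list was called against the same control alignment, and the optimal list came from a comparison of replicates by irreproducible discovery rate. Which peak caller, aligner and filters were used is not stated. Regions were ranked, list by list, by the signal value that the authors' caller wrote and that was deposited with them. The deposited q-value, given as -log10 q, was at most 0.00822 in the optimal list; column positions such as starts and summit offsets were read as counts of bases. Read depth is unknown, and the control library was not analysed here.

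Starts were those of Ensembl release 115 transcripts (WBcel235), 1 for each of the 8 genes. Annotated starts of trans-spliced genes can differ from the site where transcription begins. A gene had a region when its summit, counted from 1, lay within 2 kb of a start. Summits of different lists were matched within 100 bp. Motif letters were searched exactly on both strands. No test was made: there was 1 group, and genes are not replicates. The genes, lists, motifs and windows were chosen with earlier results of these data known. The alternatives covered other windows, numbers of regions, matching distances and motif windows, and each replicate left out. Scripts used Python 3.11.15, pandas 2.3.3 and numpy 2.4.6, and the window search was tested on simulated summits. All 8 genes were named; of each list, up to 4 genes with an optimal peak were named, strongest first. Genes without a peak (cpl-1, and neighbours) were named after their values were seen.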

Additional observations from a re-analysis of the deposited data

How the results depend on the processing

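Shares in parentheses are those of all protein-coding genes under the same setting. The count of 5 protease genes with an optimal peak within 2 kb stayed at 5 within 1 kb (3.01%) and with assignment to the nearest start (3.27%). It was 4 with starts reached from upstream only (3.57%), 4 with 1 in 2 of the regions (2.39%) and 6 with 2 times as many (9.23%). When 1 replicate was left out it was 2 to 4, with 2 (4.73%) without replicate 2 and 4 (4.8%) without replicate 1. In the promoter window it was 4 to 5 under other windows and numbers of peaks (0.951% to 2.61%) and 2 to 4 without 1 replicate, again with 2 (1.67%) without replicate 2. It was 1, cpr-3 (0.931%), when the summit had to be among the strongest regions of both replicates, a setting added after the data were examined. The count of 2 for replicate 1 became 1 with starts reached from upstream only (3.15%), 1 with 1 in 2 of the strongest regions (2.52%) and 4 with 2 times as many (8.82%). The count of 4 for replicate 2 became 7 with 2 times as many regions (9.15%). The median best rank of the 8 genes was 2767 without replicate 2 and 642 without replicate 1. GAGAGA, at 0 of the 8 summits, was at 2 within 200 bp either side and at 1 without replicate 2. The cause of these shifts was not tested. Counts of matched regions (5 to 7) and of genes with a GATA match at the strongest summit (5 to 7) stayed within 1.5 times of their main values. No paired analysis was possible because there was 1 group.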

Other observations

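The orientation of the GATA matches was examined after the sequences had been seen. The 12 matches in the 200 bp upstream of cpr-1, cpr-3, cpr-4, cpr-6 and asp-4 were all written in the direction of the gene. Over the same window of all protein-coding genes, 40.1% of 9080 matches were in the direction of the gene. In 500 bp upstream, 13 of the 17 matches of the 5 genes were, against 43.1% over all genes. In that wider window asp-3 gained 1 match, and cpr-5 and asp-1 had none. With 5 genes, several of one family, no test was made.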
